A study of Mus musculus with 6 samples.

Results

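The Hox genes are the homeobox transcription factors of the Hoxa, Hoxb, Hoxc and Hoxd clusters, and they were followed here in mouse colon with and without chronic colitis. All rows whose symbol is Hox, a cluster letter from a to d and a paralogue number were taken, and no measured value entered the choice. This gave 39 genes among the 24421 gene rows of each sample, with 11 in Hoxa, 10 in Hoxb, 9 in Hoxc and 9 in Hoxd. RNA from colon tissue of C57BL/6 mice labelled as 7 weeks of age was sequenced in 2 groups. The DSS group held 3 samples with chronic colitis induced by dextran sulfate sodium (DSS), a chemical that damages the lining of the large intestine and so inflames it. The control group held 3 samples of control colon of the same strain and labelled age. Neither group is labelled with a genetic change. The labels used here give no dose, no number of DSS cycles, no stretch of colon and no statement on separate or pooled animals. By the labels the samples may thus be technical repeats or separate animals. The p-values below set the difference between the groups against the spread of these samples within a group, and reach no further than these samples.

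Hox genes are set out along each chromosome in the order in which they are used along the body. Genes of low paralogue number, at the 3′ end of a cluster, are used from the hindbrain backwards. Genes of high paralogue number, at the 5′ end, are restricted to the hindmost parts, including the hindgut from which the distal colon and rectum form. Adult gut keeps a position-dependent Hox pattern in both its epithelium and its mesenchyme, and group 13 genes, Hoxb13 above all, are known as marks of the distal end of the large intestine. Paralogues are here called anterior (groups 1 to 3), central (groups 4 to 8) and posterior (groups 9 to 13).

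Values are FPKM, in which the fragments of a gene are divided by its length and by the library's mapped fragments. They are a level per length, so that levels can be set beside each other between genes. FPKM summed to 629036 to 678076 in DSS and 609544 to 638096 in control samples, and 11996 to 12543 genes reached 1 FPKM in DSS samples against 11849 to 11993 in control samples. Read totals are unknown, since low values did not fall into steps of whole reads. Gapdh, an abundant gene of every cell, is listed at 0, 21.4 and 36.1 FPKM in DSS 1, 2 and 3, against 2.00, 0.117 and 0.145 FPKM in control 1, 2 and 3. A listed 0, or a value near 0, may thus be an estimate that failed, and ratios below that rest on such values, as for Hoxb13 in DSS 2, Hoxd13 in DSS 2 and DSS 3 and Hoxb8 in control colon, carry this doubt. A gene was tested, with limma on log2(FPKM + 1), where 3 or more samples reached 1 FPKM, and a call means a Benjamini-Hochberg adjusted p under 0.05 over all 12348 tested genes. A log2 fold change below is the DSS mean minus the control mean on that scale, so changes of genes at low levels come out smaller than they are.

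In control colon the Hox genes formed a posterior pattern. Hoxb13 alone made up 61.9%, 64.2% and 69.3% of the summed Hox FPKM of control 1, 2 and 3, and Hoxd13 came second in each. In DSS colon the pattern differed between samples. DSS 1 lay within the control range in Hoxb13, its highest Hox gene. It was above all 3 controls at 13 of the 39 Hox genes and below them at 7, against 33.3% and 13.3% of all gene rows. DSS 2 and DSS 3 had far lower group 13 levels and higher levels of the central Hoxb genes. Of the 18 Hox genes tested, none was called higher in DSS and 1, Hoxd11, was called lower. Over all tested genes 6.34% were called higher and 2.56% lower (8.9% in either direction). The share of Hox genes called was 5.56%, but it rests on 1 gene of 18, too few to rank it against all genes. At an unadjusted p under 0.05, 5 tested Hox genes were higher and 3 lower, against 28.3% of all tested genes in either direction.

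**Figure D1:**
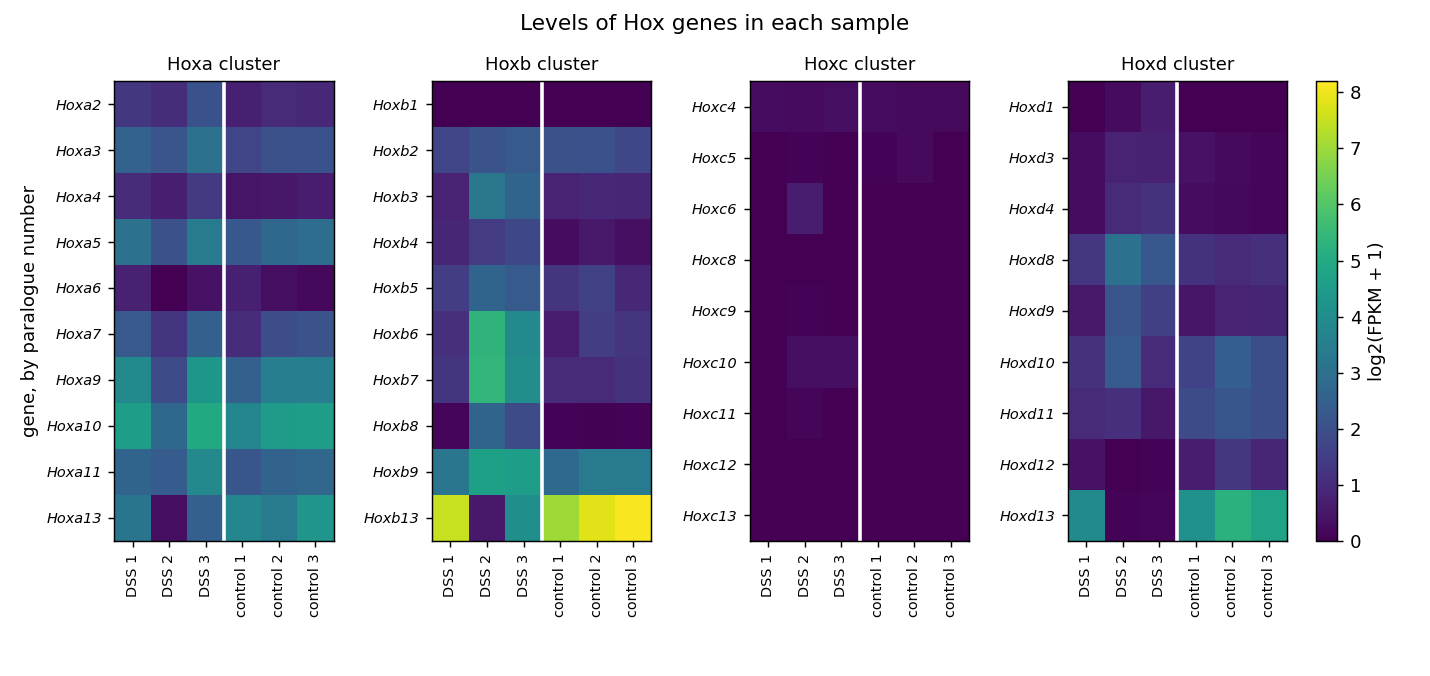
Levels of Hox genes in each sample, as log2(FPKM + 1) by colour, with the genes of each cluster in order of paralogue number from top to bottom and the DSS samples left of the control samples. Hoxb13 is bright in DSS 1 and in the 3 control samples and dark in DSS 2 (0.472 FPKM), and Hoxb6 and Hoxb7 are bright in DSS 2 and DSS 3.

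The clusters differed in level. The Hoxa cluster had 8 of 11 genes tested, from Hoxa2 to Hoxa13 (chromosome 6, 52162417 to 52260880, minus strand, GRCm38). The Hoxb cluster (chromosome 11, 96194316 to 96368256, plus strand) had 6 of 10 tested and held the highest single level, 278 FPKM of Hoxb13 in control 3. The Hoxd cluster (chromosome 2, 74668310 to 74765142, plus strand) had 4 of 9 tested. In the Hoxc cluster (chromosome 15, 102921103 to 103036852, plus strand) none of 9 genes was tested, and the highest value was 0.559 FPKM of Hoxc6 in DSS 2. In all, 21 Hox genes did not pass the minimum level. Of these, Hoxb1, Hoxc8, Hoxc12 and Hoxc13 were listed at 0 in all 6 samples.

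Group 13 genes pattern the hindgut, the urogenital outlets and the digits. Hoxb13, known for its restriction to distal colon, rectum and prostate, had 183, 0.472 and 16.1 FPKM in DSS 1, 2 and 3, against 129, 229 and 278 FPKM in control 1, 2 and 3. DSS 1 lay within the control range and DSS 2 and DSS 3 below it, so the groups overlapped. The control mean was 1.16 times the DSS 1 level, 449 times the DSS 2 level and 13.2 times the DSS 3 level. The log2 fold change was -3.60 ± 1.68 (SE), with limma adjusted p = 0.223, and the gene was not called.

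Hoxd13, whose loss in mice malforms the digits and the anal sphincter, had 14.2, 0.0586 and 0.0866 FPKM in DSS 1, 2 and 3, against 16.2, 36.9 and 25.5 FPKM in the control samples. Every DSS sample lay below every control sample, but DSS 1 only just. The control mean was 1.84, 447 and 302 times the levels of DSS 1, 2 and 3 (log2 fold change -3.32 ± 1.05 SE, limma adjusted p = 0.104, not called). Hoxa13, which acts with Hoxd13 in the hindgut and the limb, had 8.13, 0.250 and 4.68 FPKM in DSS 1, 2 and 3, against 12.9, 9.09 and 18.2 FPKM in the control samples. It too was lower in all 3 DSS samples, with the lowest level in DSS 2 (log2 fold change -1.79 ± 0.71 SE, limma adjusted p = 0.157, not called). Hoxc13, known from hair follicles and nails, was listed at 0 throughout. Hoxd13, Hoxa13 and Hoxb13 overlap no other annotated exon, and over at least 200 bases none shares 95% of its sequence with another gene.

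**Figure D2:**
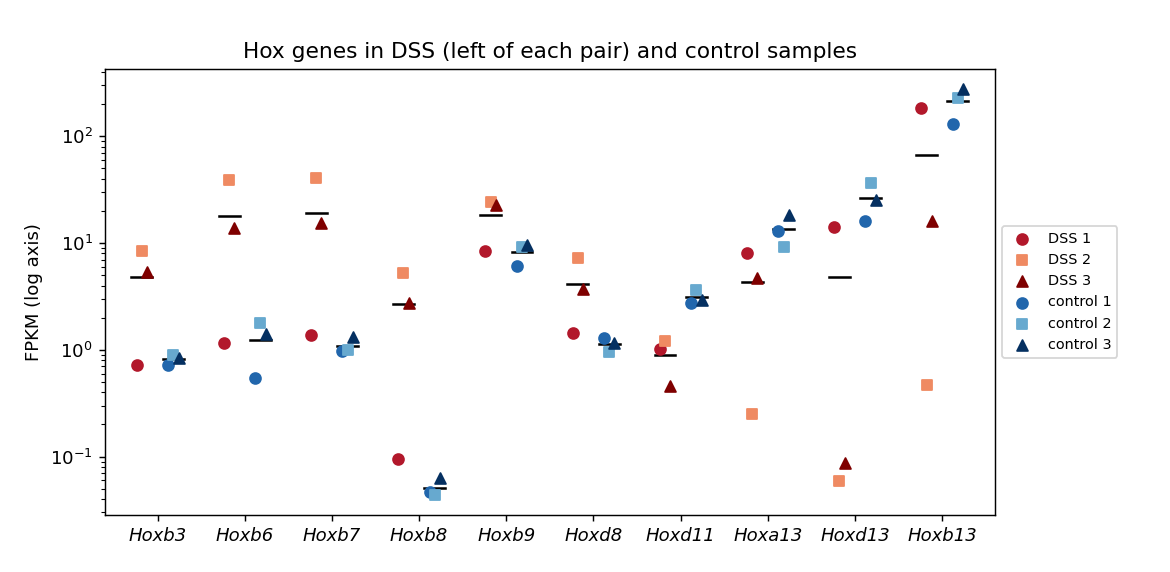
FPKM (log axis) of 10 Hox genes in each sample, with DSS samples in red and orange left of control samples in blue, and a bar at each group mean. DSS 1 lies among or next to the control samples for Hoxb6 (1.17 FPKM) and Hoxb13 (183 FPKM), while DSS 2 and DSS 3 lie apart from them.

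Next to Hoxd13 lie Hoxd12, Hoxd11 and Hoxd10, of which Hoxd11 was called lower in DSS. Hoxd11, which shapes the forearm and the kidney together with Hoxa11, fell to 1.01, 1.21 and 0.455 FPKM in DSS 1, 2 and 3, against 2.76, 3.61 and 2.91 FPKM in control 1, 2 and 3. All 3 DSS samples, DSS 1 included, lay well below all control samples. The log2 fold change was -1.13 ± 0.21 (SE), with limma adjusted p = 0.0202. The call was lost without DSS 3 (adjusted p = 0.0540) and without control 1, 2 or 3 (adjusted p = 0.0615, 0.0941 and 0.0797), fits that hold 5 samples. Exons of the predicted gene Gm28309 cover 10.8% of the Hoxd11 exons, and reads there cannot be split between the genes. Hoxd12 was below the test's minimum, at 0.330, 0 and 0.0512 FPKM in DSS 1, 2 and 3, against 0.562, 1.47 and 0.858 FPKM in the control samples, again with every DSS sample below every control sample. Hoxd10, a gene of the hindlimb and the lumbar region, had 1.26, 4.07 and 1.03 FPKM in DSS 1, 2 and 3, against 2.14, 4.52 and 2.91 FPKM in the control samples. Its groups overlapped, since DSS 2 lay within the control range (log2 fold change -0.52 ± 0.38 SE, limma adjusted p = 0.418).

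The start sites of Hoxd11 and Hoxd13 are shown because Hoxd11 was the gene called and Hoxd13 had the larger differences. Each window holds 300 bases around a start site, 5′ to 3′, from RefSeq on GRCm38.p6, both on the plus strand of chromosome 2. Capitals mark TTTATG, a sequence that Cdx factors bind, or TGATNNAT, a sequence that Hox and Pbx proteins bind together, each searched on both strands.
Hoxd11, chr2:74679308-74679607: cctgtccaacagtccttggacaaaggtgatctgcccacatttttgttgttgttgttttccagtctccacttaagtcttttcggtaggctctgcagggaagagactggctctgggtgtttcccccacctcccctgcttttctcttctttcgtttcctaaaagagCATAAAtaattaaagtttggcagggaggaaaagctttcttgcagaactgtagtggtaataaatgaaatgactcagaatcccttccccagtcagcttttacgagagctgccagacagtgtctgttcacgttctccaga
Hoxd11, chr2:74682073-74682372: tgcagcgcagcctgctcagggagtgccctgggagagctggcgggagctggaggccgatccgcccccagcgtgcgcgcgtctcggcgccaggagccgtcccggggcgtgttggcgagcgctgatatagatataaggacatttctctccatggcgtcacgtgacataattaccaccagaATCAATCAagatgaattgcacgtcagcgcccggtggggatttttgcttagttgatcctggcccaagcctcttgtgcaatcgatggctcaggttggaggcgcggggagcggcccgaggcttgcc
Hoxd13, chr2:74667975-74668274: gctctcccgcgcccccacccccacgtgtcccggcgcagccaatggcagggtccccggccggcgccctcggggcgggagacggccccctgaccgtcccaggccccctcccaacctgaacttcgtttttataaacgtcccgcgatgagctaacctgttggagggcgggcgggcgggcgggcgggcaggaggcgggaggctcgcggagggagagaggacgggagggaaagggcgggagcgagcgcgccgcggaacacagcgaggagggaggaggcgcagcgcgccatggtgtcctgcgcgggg
The first Hoxd11 window holds 4 CpG dinucleotides and 1 TTTATG, and the second holds 25 CpG and 1 TGATNNAT. The Hoxd13 window holds 37 CpG and neither motif. Windows were found for 22 of the 39 Hox genes, 24 in all, with a median of 14.5 CpG against 7 over all 32851 windows. TTTATG was in 5 of the 24 Hox windows (20.8%) and in 11.9% of all windows. TGATNNAT was in 4 of the 24 Hox windows (16.7%) and in 8.85% of all windows. Counts this small cannot rank the shares. All are matches of letters, not binding sites measured here.

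The posterior Hoxa genes other than Hoxa13 shared the pattern of group 13 only in part. In DSS 2 Hoxa9 and Hoxa10 were below all controls, as Hoxa13, Hoxb13 and Hoxd13 were, and Hoxa11 was not. In DSS 3 none of Hoxa9, Hoxa10 and Hoxa11 was below the controls. Hoxa10, known for its role in the uterus and the lumbar spine, had 23.5, 5.86 and 30.6 FPKM in DSS 1, 2 and 3, against 12.4, 22.0 and 23.1 FPKM in the control samples. It was low in DSS 2 alone, and it was the highest Hox gene of DSS 3 (log2 fold change -0.16 ± 0.57 SE, limma adjusted p = 0.882). Hoxa9, which also maintains blood progenitors, had 13.9, 2.77 and 19.4 FPKM in DSS 1, 2 and 3, against 4.74, 10.5 and 10.3 FPKM in the control samples. It was likewise low in DSS 2 and above all controls in DSS 1 and DSS 3 (log2 fold change 0.21 ± 0.64 SE, limma adjusted p = 0.864). Hoxa11 had 5.22, 4.19 and 13.6 FPKM in DSS 1, 2 and 3, against 3.61, 5.06 and 5.58 FPKM in the control samples. DSS 3 stood above the rest (log2 fold change 0.45 ± 0.39 SE, limma adjusted p = 0.483), and exons of the antisense gene Hoxa11os cover 35.0% of its exons. The sign of these 3 fold changes turns when one sample is left out.

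Among the Hox genes read in control colon, Hoxb8, Hoxb7 and Hoxb6 had the highest ratios of the DSS mean to the control mean. Hoxb7, which acts in the thoracic skeleton and is known from its promoter's use in the ureteric bud, had 1.39, 40.8 and 15.4 FPKM in DSS 1, 2 and 3, against 0.975, 0.994 and 1.31 FPKM in control 1, 2 and 3. All DSS samples were above all control samples, DSS 1 by little and DSS 2 and DSS 3 by 37.4 and 14.1 times the control mean (log2 fold change 2.499 ± 0.97 SE, limma adjusted p = 0.154). Hoxb6, a gene of lateral mesoderm, had 1.17, 39.2 and 13.97 FPKM in DSS 1, 2 and 3, against 0.539, 1.78 and 1.404 FPKM in the control samples. DSS 1 lay within the control range and the other DSS samples lay 31.5 and 11.2 times above the control mean (log2 fold change 2.33 ± 1.01 SE, limma adjusted p = 0.192). Hoxb9, a gene of the thoracic region, had 8.35, 24.1 and 22.8 FPKM in DSS 1, 2 and 3, against 6.04, 9.24 and 9.57 FPKM in the control samples. Here again DSS 1 was within the control range (log2 fold change 0.96 ± 0.39 SE, limma adjusted p = 0.166). In DSS 2 the highest Hox genes were Hoxb7, Hoxb6 and Hoxb9, in place of the Hoxb13 that led every control sample.

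Hoxb8, which is needed in myeloid progenitors and for normal grooming in mice, was nearly silent in control colon. It had 0.0954, 5.25 and 2.73 FPKM in DSS 1, 2 and 3, against 0.0468, 0.0442 and 0.0627 FPKM in control 1, 2 and 3. The DSS levels were 1.86, 102 and 53.3 times the control mean, and the groups did not overlap. Only 2 samples reached 1 FPKM, so the gene was not tested. Its start site, on the plus strand of chromosome 11, is shown because this ratio was the highest among the Hox genes, and it holds 13 CpG, 2 TTTATG and 1 TGATNNAT, in capitals.
Hoxb8, chr11:96281655-96281954: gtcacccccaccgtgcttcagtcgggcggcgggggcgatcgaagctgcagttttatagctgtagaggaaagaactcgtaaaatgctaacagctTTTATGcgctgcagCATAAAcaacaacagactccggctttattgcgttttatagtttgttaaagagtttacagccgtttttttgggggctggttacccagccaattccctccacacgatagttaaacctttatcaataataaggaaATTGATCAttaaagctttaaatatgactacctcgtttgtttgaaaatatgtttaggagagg

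Hoxb8 is also the textbook target of miR-196, a microRNA encoded within the Hox clusters that pairs with its 3′ UTR almost in full and directs its cleavage. The mature sequences and the site in the Hoxb8 3′ UTR (chr11:96284888-96284909, plus strand, GRCm38) are set out to show this pairing. Capitals mark the seed (bases 2 to 8) in the microRNAs and the bases in Watson-Crick pairs with miR-196a-5p in the site.
miR-196a-5p: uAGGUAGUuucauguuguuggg
miR-196b-5p: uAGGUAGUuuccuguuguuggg
Hoxb8 site: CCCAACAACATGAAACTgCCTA
Both microRNAs share the seed AGGUAGU. The site forms 21 Watson-Crick pairs and 1 G:U pair with the 22 bases of miR-196a-5p. The best sites found in Hoxb6, Hoxb7 and Hoxb9 formed 10, 12 and 10 Watson-Crick pairs and 8, 5 and 7 G:U pairs. The search took the ungapped window with the most pairs of either kind over all 22 bases. Matches to the seed alone were not sought, so other sites in these genes may be missed. The libraries were made from poly(A) RNA and do not measure mature microRNAs. The row named Mir196b lies inside Hoxa9 on the same strand and covers 1.52% of the Hoxa9 exons, so reads there cannot be split between the genes. It had 14.6, 2.49 and 4.02 FPKM in DSS 1, 2 and 3, against 9.63, 15.5 and 24.4 FPKM in the control samples, with DSS 1 within the control range (log2 fold change -1.34 ± 0.58 SE, limma adjusted p = 0.186). The row named Mir196a-1, next to Hoxb9, had 2.90, 2.65 and 9.06 FPKM in DSS 1, 2 and 3, against 3.95, 6.39 and 3.85 FPKM in the control samples, and its groups overlapped.

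The other central genes of Hoxb and Hoxd lay above all controls in DSS 2 and DSS 3, and none of them was called. Hoxb5, which acts in neural crest that forms the enteric nervous system, had 1.80, 5.23 and 3.98 FPKM in DSS 1, 2 and 3, against 1.42, 2.00 and 0.931 FPKM in the control samples (log2 fold change 0.88 ± 0.32 SE, limma adjusted p = 0.127). Hoxb4, known from blood stem cells, was not tested and had 0.846, 1.77 and 2.46 FPKM in DSS 1, 2 and 3, against 0.195, 0.486 and 0.252 FPKM in the control samples. Hoxb4 was above the controls in all 3 DSS samples, and Hoxb5 in DSS 2 and DSS 3. Hoxd8, a gene of the trunk, had 1.44, 7.26 and 3.69 FPKM in DSS 1, 2 and 3, against 1.28, 0.957 and 1.16 FPKM in the control samples, with the groups apart (log2 fold change 1.10 ± 0.41 SE, limma adjusted p = 0.132). Hoxd4, a gene of the neck vertebrae, had 0.198, 1.02 and 1.28 FPKM in DSS 1, 2 and 3, against 0.207, 0.127 and 0.0913 FPKM in the control samples. Hoxd4 and Hoxd9, the neighbours of Hoxd8 on its 3′ and 5′ sides, were not tested. Hoxd9 had 0.459, 3.44 and 1.94 FPKM in DSS 1, 2 and 3, against 0.405, 0.724 and 0.809 FPKM in the control samples, so DSS 2 and DSS 3 were above the controls at both neighbours as well.

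The central Hoxa genes had lower ratios of DSS to control level than those of Hoxb. Hoxa5, needed for lung and gut maturation in mice, had 7.58, 3.08 and 9.25 FPKM in DSS 1, 2 and 3, against 3.72, 5.89 and 6.62 FPKM in the control samples (log2 fold change 0.18 ± 0.37 SE, limma adjusted p = 0.788), and its sign turned without DSS 3 (-0.086) and without control 1 (-0.028). Hoxa7 had 3.87, 1.37 and 4.78 FPKM in DSS 1, 2 and 3, against 1.08, 2.79 and 3.25 FPKM in the control samples (log2 fold change 0.33 ± 0.40 SE, limma adjusted p = 0.634). Both were above all controls in DSS 1 and DSS 3 and not in DSS 2, as Hoxa9 was. Hoxa4, not tested, had 1.05, 0.620 and 1.61 FPKM in DSS 1, 2 and 3, against 0.377, 0.447 and 0.547 FPKM in the control samples, with the groups apart. Hoxa6 was under 1 FPKM in every sample, with 0.674, 0 and 0.307 FPKM in DSS 1, 2 and 3, against 0.640, 0.266 and 0.123 FPKM in the control samples. In Hoxc, Hoxc4 had 0.210, 0.183 and 0.232 FPKM in DSS 1, 2 and 3, against 0.221, 0.147 and 0.145 FPKM in the control samples. Hoxc6 was listed at 0.559 FPKM in DSS 2 and Hoxc10 at 0.231 and 0.222 FPKM in DSS 2 and DSS 3, and both were at 0 in all other samples.

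Among the anterior genes, which pattern the hindbrain, the pharyngeal arches and the neck, none was called. Hoxa3, needed for the thymus and parathyroids, had 4.96, 3.45 and 7.45 FPKM in DSS 1, 2 and 3, against 2.24, 3.11 and 3.16 FPKM in the control samples (log2 fold change 0.67 ± 0.26 SE, limma adjusted p = 0.142). Hoxa2, which sets the identity of the second pharyngeal arch, had 1.53, 1.09 and 3.20 FPKM in DSS 1, 2 and 3, against 0.648, 1.02 and 0.870 FPKM in the control samples (log2 fold change 0.61 ± 0.27 SE, limma adjusted p = 0.189). Both had all DSS samples above all controls, with DSS 2 nearest to them. Hoxb3 had 0.724, 8.44 and 5.31 FPKM in DSS 1, 2 and 3, against 0.723, 0.901 and 0.842 FPKM in the control samples, and was not tested because only 2 samples reached 1 FPKM. DSS 1 was again at the control level, and exons of the antisense gene Hoxb3os cover 52.9% of the Hoxb3 exons. Hoxb2, a hindbrain gene, had 2.29, 3.31 and 4.03 FPKM in DSS 1, 2 and 3, against 3.06, 3.18 and 2.34 FPKM in the control samples (log2 fold change 0.11 ± 0.21 SE, limma adjusted p = 0.769, with -0.0062 under median-of-ratios scaling and -0.028 without DSS 3). Hoxd3 had 0.203, 0.746 and 0.690 FPKM in DSS 1, 2 and 3, against 0.305, 0.144 and 0.0902 FPKM in the control samples. Hoxd3 and Hoxd4 overlap each other and antisense genes over 62.8% and 52.3% of their exons, so their reads cannot be split. Exons of other genes, most of them antisense, also cover 27.1% of Hoxa3, 27.3% of Hoxb2, 20.4% of Hoxa7, 16.0% of Hoxa4 and 15.0% of Hoxa2. Hoxd1 had 0, 0.179 and 0.528 FPKM in DSS 1, 2 and 3, against 0 in every control sample.

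**Figure D3:**
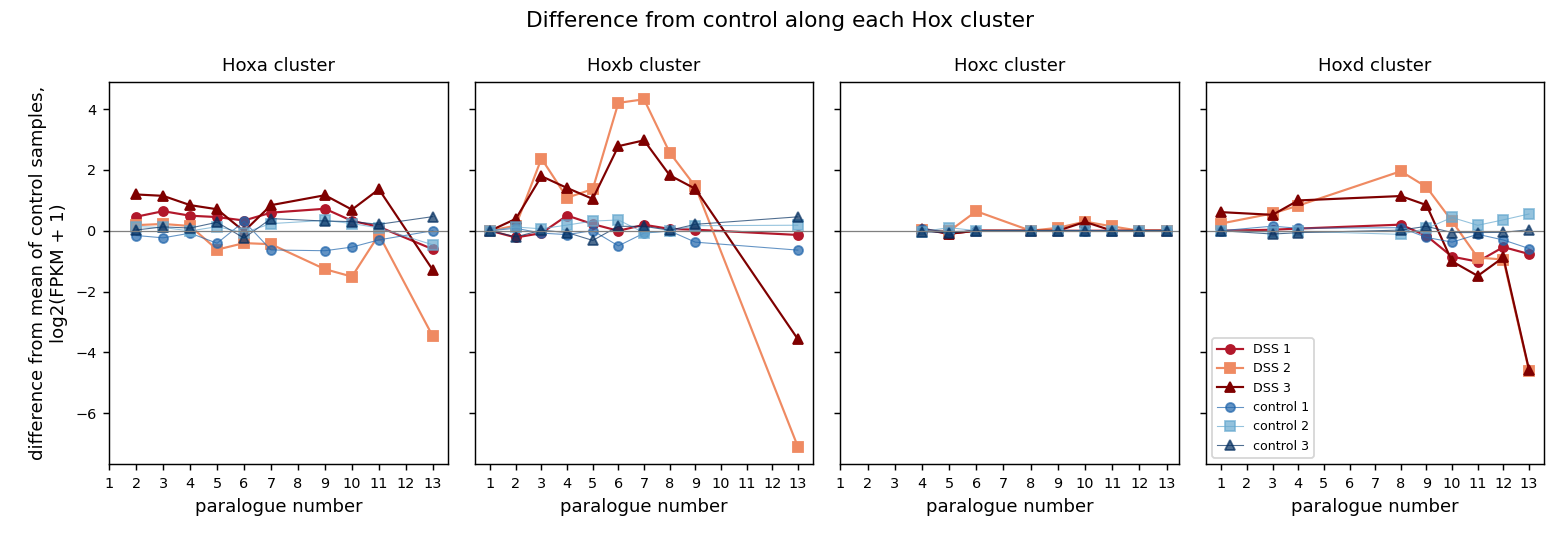
Difference of each sample from the mean of the control samples, in log2(FPKM + 1), along each cluster in order of paralogue number, with DSS samples in red and orange and control samples in blue. In Hoxb, DSS 2 and DSS 3 lie above 0 at groups 3 to 9 and below it at group 13, while DSS 1 stays near the control samples. The Hoxc panel is flat because no gene there reached 1 FPKM.

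Set in the order of the paralogue groups, the difference was positive in the tested anterior and central genes and of mixed sign in the posterior ones. All 3 tested anterior and all 6 tested central genes had a positive log2 fold change, with medians of 0.61 and 0.99, but the signs of Hoxb2 and Hoxa5 turned in the settings given above. Of the 9 tested posterior genes 3 were positive (Hoxa9, Hoxa11 and Hoxb9) and 6 negative, with a median of -0.52. By group, the 4 group 9 genes summed to 22.8, 30.4 and 44.1 FPKM in DSS 1, 2 and 3, against 11.2, 20.4 and 20.7 FPKM in the control samples, whereas group 13 summed to 206, 0.781 and 20.9 FPKM in DSS 1, 2 and 3, against 159, 275 and 321 FPKM in the control samples. Groups 10 and 11 had DSS means of 22.2 and 8.61 FPKM, against 22.4 and 7.84 FPKM in control colon. The median was 0.27 over the 18 tested Hox genes and 0.13 over all tested genes. Counting all 39 genes, 7 had every DSS sample above every control sample (Hoxa2, Hoxa3, Hoxa4, Hoxb4, Hoxb7, Hoxb8 and Hoxd8), none of them posterior. Another 4 had every DSS sample below every control sample (Hoxa13, Hoxd11, Hoxd12 and Hoxd13), all of them posterior. Among the tested Hox genes these counts were 4 and 3, and over all tested genes 25.6% had DSS above and 9.51% DSS below.

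Shares of the summed Hox FPKM were taken by class. Posterior genes made up 89.5%, 27.4% and 57.7% of the sum in DSS 1, 2 and 3, against 91.5%, 93.1% and 94.2% in control 1, 2 and 3. Central genes made up 7.01%, 62.4% and 31.0% in DSS 1, 2 and 3, against 5.14%, 4.51% and 3.97% in the control samples. DSS 1 was thus close to the control samples and DSS 2 farthest from them. The mean posterior share differed by -34.7 percentage points (DSS minus control). Without DSS 1 the difference was -50.4 points, without DSS 2 it was -19.3 points, without Hoxb13 it was -29.0 points, and without all group 13 genes, a setting added after seeing the data, it was -20.6 points. With group 13 left out, posterior genes made up 64.0%, 27.1% and 52.5% in DSS 1, 2 and 3, against 64.9%, 70.0% and 70.5% in the control samples. Group 13 alone made up 70.9%, 0.458% and 10.9% in DSS 1, 2 and 3, against 75.9%, 77.1% and 80.2% in the control samples. Summed over Hoxb2 to Hoxb9, the level was 16.7, 128 and 70.6 FPKM in DSS 1, 2 and 3, against 12.99, 18.6 and 16.7 FPKM in the control samples. Because whole tissue was measured, fewer cells that use a gene and less RNA of it per cell cannot be told apart.

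**Figure D4:**
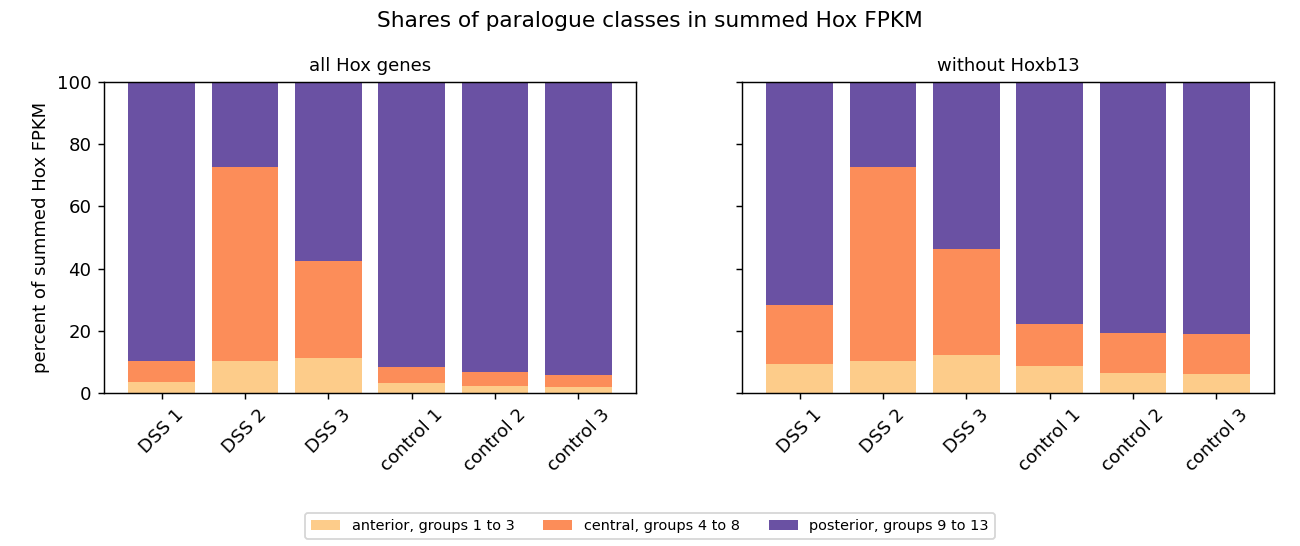
Percent of the summed Hox FPKM held by anterior, central and posterior genes in each sample, DSS left of control, with all 39 genes (left) and without Hoxb13 (right). Posterior genes hold 27.4% in DSS 2 and 57.7% in DSS 3, and between 89.5% and 94.2% in DSS 1 and the control samples in the left panel.

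Across the Hox genes DSS 1 correlated more closely with the control samples than with the other DSS samples. Over the 39 Hox genes, on the log2(FPKM + 1) scale, Pearson's r between DSS 1 and the control samples was 0.960 to 0.976, and it was 0.246 with DSS 2 and 0.719 with DSS 3. DSS 2 had r from 0.179 to 0.221 and DSS 3 from 0.5996 to 0.645 with the control samples, which had 0.982 to 0.9895 among themselves. Over all 12348 tested genes DSS 1 had r from 0.932 to 0.937 with the control samples, 0.936 with DSS 2 and 0.953 with DSS 3. These r values are across genes of the same libraries and are given as a description. The Hox set and the tested set differ in size and level, so their r values cannot be ranked against each other. Of the 39 Hox genes, DSS 1 was above all 3 controls at 13 and below them at 7, DSS 2 at 20 and 9, and DSS 3 at 24 and 7. Over all gene rows the shares above and below were 33.3% and 13.3% in DSS 1, 28.3% and 22.7% in DSS 2, and 35.6% and 15.5% in DSS 3. The inflammatory gene S100a8 of neutrophils did not set DSS 1 with the controls, with 2256, 3837 and 3593 FPKM in DSS 1, 2 and 3, against 15.3, 4.07 and 8.35 FPKM in the control samples.

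Leaving out DSS 1 changed the calls most. In that fit of 5 samples Hoxb5 (adjusted p = 0.0186), Hoxb6 (0.00460), Hoxb7 (0.00148), Hoxb9 (0.00754) and Hoxd8 (0.0104) were called higher, and Hoxd11 (0.0179) and Hoxd13 (0.000267) lower. This is 5 and 2 of 18 tested Hox genes, where 9.43% of all tested genes were called higher and 4.91% lower in the same limma fit. Hoxb13 (adjusted p = 0.0510) and Hoxa13 (adjusted p = 0.0599) were not called there. In the other 5 fits without 1 sample no Hox gene was called higher. DSS 1 was the DSS sample nearest to the controls in these same Hox genes. The added calls without DSS 1 thus restate values already given and lend them no further support.

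A lower minimum level brought in more Hox genes and no further call. With 0.1 FPKM in 3 samples as the minimum, 28 were tested, none was called higher and Hoxd11 alone lower, against 4.86% and 2.16% of all genes. Hoxb4 (adjusted p = 0.0520) and Hoxd12 (adjusted p = 0.0575) were nearest to a call in that fit. With no minimum 35 were tested, again with none called higher and Hoxd11 lower, against 2.82% and 1.32% of all genes.

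Companions of the Hox genes were counted in 6 lists, to be read against the 6.34% of all tested genes called higher, the 2.56% called lower and their median log2 fold change of 0.13. Among the TALE cofactors, the Pbx, Meis, Pknox and Tgif homeobox proteins that bind DNA with Hox proteins or at the same sites, 8 of 11 were tested and none was called (median log2 fold change -0.21). The smallest p-values were those of Tgif1 (21.9, 20.1 and 14.6 FPKM in DSS 1, 2 and 3, against 11.1, 12.8 and 13.4 FPKM in the control samples, limma adjusted p = 0.108) and Pknox1 (limma adjusted p = 0.242). Among the ParaHox and gut segment factors 5 of the 18 in the files were tested and none was called (median log2 fold change 0.13). Cdx2, the ParaHox factor of intestinal epithelium that also acts on Hox genes, had 21.5, 102 and 97.6 FPKM in DSS 1, 2 and 3, against 12.6, 19.4 and 37.0 FPKM in the control samples (limma adjusted p = 0.196, and 0.0157 without DSS 1). DSS 1 was within the control range and the other DSS samples above it. Gata6, an endodermal factor, had 12.3, 13.3 and 11.5 FPKM in DSS 1, 2 and 3, against 9.33, 11.8 and 11.3 FPKM in the control samples (limma adjusted p = 0.479). Cdx1, singled out after its values were seen, overlapped between the groups, with 201 to 211 FPKM in DSS and 133 to 256 FPKM in control colon.

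Polycomb proteins keep Hox genes silent where they are not used and Trithorax proteins keep them active. Of 30 such genes 28 were tested, 2 were called higher and none lower (median log2 fold change 0.31). The share called higher, 7.14%, is near the 6.34% of all tested genes. Ezh2, the methyltransferase of Polycomb repressive complex 2, rose to 9.99, 9.02 and 11.6 FPKM in DSS 1, 2 and 3, against 2.86, 5.33 and 4.87 FPKM in the control samples (log2 fold change 1.09 ± 0.23 SE, limma adjusted p = 0.0287). Bmi1, a subunit of Polycomb repressive complex 1, rose to 12.9, 17.1 and 16.8 FPKM in DSS 1, 2 and 3, against 8.30, 8.99 and 7.33 FPKM in the control samples (log2 fold change 0.85 ± 0.17 SE, limma adjusted p = 0.0256). Unlike the Hox genes of the central Hoxb stretch, both had DSS 1 at a level near the other DSS samples. The Ezh2 call was lost without DSS 3 (adjusted p = 0.0974) and without control 1, 2 or 3 (0.0578, 0.0672 and 0.0813), and with no filter on low values (0.0536). The Bmi1 call was lost without DSS 2 or DSS 3 (0.0541 and 0.0902), without control 1, 2 or 3 (0.0720, 0.0805 and 0.110) and under median-of-ratios scaling (0.0544).

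Retinoic acid, made by retinol and retinal dehydrogenases, switches on 3′ Hox genes in the embryo. Of 17 genes of its pathway 11 were tested and none was called (median log2 fold change 0.42). The smallest p-values were those of Dhrs3, a retinal reductase (32.9, 35.9 and 49.3 FPKM in DSS 1, 2 and 3, against 14.6, 21.1 and 29.3 FPKM in the control samples, limma adjusted p = 0.0889), and of Rdh10, a retinol dehydrogenase (33.3, 26.3 and 24.4 FPKM in DSS 1, 2 and 3, against 24.0, 14.2 and 12.3 FPKM in the control samples, limma adjusted p = 0.113). Aldh1a1, a retinal dehydrogenase singled out after its values were seen, had 16.0, 321 and 198 FPKM in DSS 1, 2 and 3, against 30.1, 36.3 and 38.0 FPKM in the control samples (limma adjusted p = 0.390). As with Cdx2 and most central Hoxb genes, DSS 2 and DSS 3 were high and DSS 1 was not. Aldh1a1 was picked with these values known, so the likeness lends no support.

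Of the 16 RNAs within the Hox clusters that the files hold, 7 were tested, none was called higher and 1 was called lower (14.3%, median log2 fold change -0.88). Hoxb5os, transcribed opposite Hoxb5, fell to 4.33, 3.69 and 5.11 FPKM in DSS 1, 2 and 3, against 10.005, 14.7 and 9.93 FPKM in the control samples (log2 fold change -1.21 ± 0.20 SE, limma adjusted p = 0.0146). All DSS samples were below all controls, while Hoxb5 itself was above them in DSS 2 and DSS 3. Hoxb5os covers 3.59% of the Hoxb5 exons, and strand was not recorded. The call was lost without control 2 or control 3 (adjusted p = 0.0624 and 0.0519). Hottip, transcribed from the 5′ end of Hoxa beside Hoxa13, was singled out after its values were seen and had 7.67, 0.0906 and 4.98 FPKM in DSS 1, 2 and 3, against 10.7, 9.27 and 16.7 FPKM in the control samples (limma adjusted p = 0.182). As for Hoxa13, all DSS samples were below all controls and DSS 2 was lowest. Of 18 other posterior patterning genes 12 were tested, none was called higher and 1 was called lower (8.33%, median log2 fold change -0.31). Pitx1, a hindlimb homeobox gene, fell to 3.81, 2.11 and 1.04 FPKM in DSS 1, 2 and 3, against 6.18, 7.98 and 6.62 FPKM in the control samples (log2 fold change -1.34 ± 0.31 SE, limma adjusted p = 0.0403). Its call held without DSS 1 (0.00560) and was lost without any other sample (0.0795 to 0.135), with a pseudocount of 0.1 (0.0535) and with no filter on low values (0.0741).

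**Figure D5:**
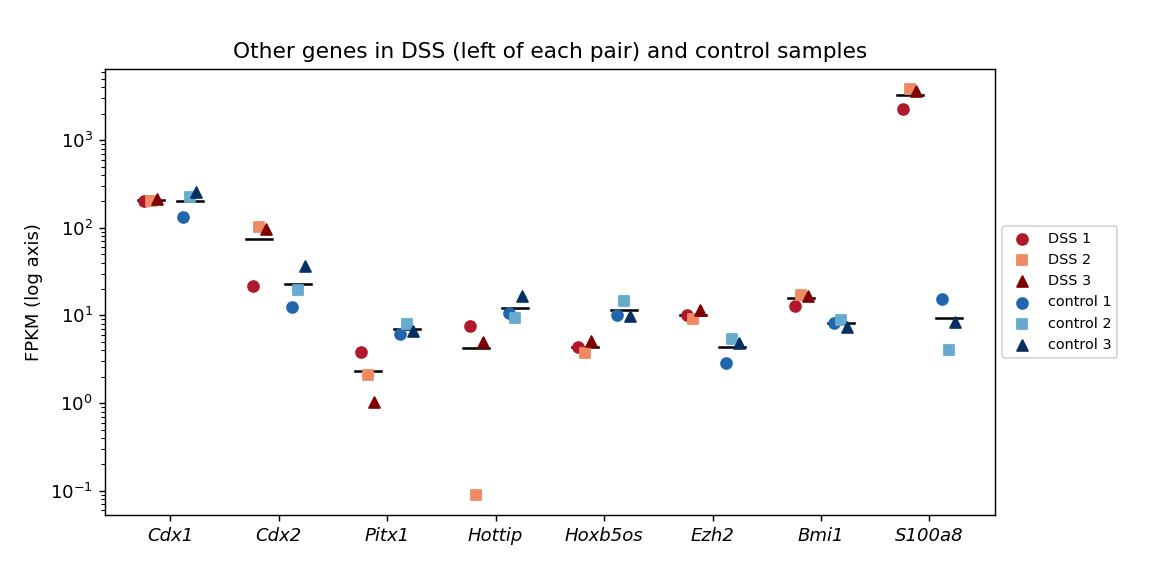
FPKM (log axis) of 8 other genes in each sample, with DSS samples in red and orange left of control samples in blue, and a bar at each group mean. Cdx2 is at 21.5 FPKM in DSS 1, within the control range, and near 100 FPKM in DSS 2 and DSS 3, whereas S100a8, Ezh2 and Bmi1 are above all control samples in every DSS sample.

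Markers of cell types and of other gut segments were read beside these values, and their calls stand against the same shares of all tested genes. Colonic epithelium was present throughout, with a summed level of its 10 markers of 5775 to 7212 FPKM in DSS and 9667 to 13590 FPKM in control colon, and 3 were called lower (Krt8, Cdhr5 and Krt19). Muc2 alone of them had a positive log2 fold change (1.17, limma adjusted p = 0.177). It had 210, 382 and 872 FPKM in DSS 1, 2 and 3, against 215, 135 and 210 FPKM in the control samples. The 10 smooth muscle markers summed to 2116, 1458 and 4026 FPKM in DSS 1, 2 and 3, against 4313 to 5384 FPKM in control colon, with 1 called lower (Tpm2). The 10 fibroblast markers summed to 693 to 1209 FPKM in DSS and 660 to 804 FPKM in control colon, with Pdpn called higher and Cd34 lower. Apart from S100a8 and S100a9, called higher, these calls were each lost in at least 1 fit without a sample. None was called among 8 markers of enteric neurons and glia (18.9 to 43.1 FPKM in DSS, 32.5 to 41.0 FPKM in control colon), 6 of endothelium (20.5 to 39.0 FPKM in DSS, 26.5 to 28.4 FPKM in control colon) or 8 of skeletal muscle (10.4 to 23.0 FPKM in DSS, 16.0 to 26.5 FPKM in control colon), of which Myh1 and Myh4 were at 0 throughout. The 8 leukocyte markers, S100a8 and S100a9 among them, summed to 4480 to 7133 FPKM in DSS and 337 to 418 FPKM in control colon. Most of this was S100a8 and S100a9 in DSS and Lyz2 in control colon. Among the other tested members Lyz2 and Ptprc had positive log2 fold changes (0.49 and 0.34). Those of Cd68, Csf1r and Cd79a were negative (-0.33, -0.57 and -0.47), and none of these was called. The 12 markers of the squamous anal canal summed to 101 to 103 FPKM in DSS and 106 to 356 FPKM in control colon. Nearly all of this was Sfn, and Trp63, which defines squamous epithelium, was at most 0.0401 FPKM in any sample. The keratins and Krtdap below were singled out after their values were seen. Krt14 had 3.59, 0.654 and 0.499 FPKM in DSS 1, 2 and 3, against 2.33, 0.833 and 1.17 FPKM in the control samples. Krt5 had 1.41, 0.0235 and 0.249 FPKM in DSS 1, 2 and 3, and at most 0.0269 FPKM in control colon. Among DSS samples Krt13 and Krt6a were also highest in DSS 1, Krt10, Sfn and Trp63 in DSS 2 and Krtdap in DSS 3. Krt13 was higher still in control 1.

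The 10 small intestine and stomach markers summed to 22.0, 90.4 and 31.2 FPKM in DSS 1, 2 and 3, against 7.58, 5.46 and 9.12 FPKM in the control samples, so every DSS sample, DSS 1 included, was above every control sample. Of these, 3 were tested and none was called. Slc10a2, the bile acid transporter of ileum, had 6.31, 62.4 and 14.1 FPKM in DSS 1, 2 and 3, against 2.05, 1.49 and 1.61 FPKM in the control samples (limma adjusted p = 0.0590). Alpi, the intestinal alkaline phosphatase, had 1.03, 9.85 and 10.7 FPKM in DSS 1, 2 and 3, against 0.214, 0 and 0.379 FPKM in the control samples (limma adjusted p = 0.0669). Both were highest in DSS 2 and DSS 3, and above all controls in DSS 1 too. Fabp6, the bile acid binding protein of ileum, had 13.3, 15.7 and 5.60 FPKM in DSS 1, 2 and 3, against 5.02, 3.87 and 7.01 FPKM in the control samples (limma adjusted p = 0.158). Here DSS 1 and DSS 2 were high and DSS 3 lay within the control range, unlike the central Hoxb genes. Lct, lactase of the small intestine, was at most 0.0428 FPKM in any sample, and the stomach genes Gkn1 and Tff1 were at 0 in all. The other untested members were singled out after their values were seen. Sis had 0, 1.04 and 0.301 FPKM in DSS 1, 2 and 3, against 0, 0.0483 and 0.0153 FPKM in the control samples. Apoa4 had 0.0822, 1.24 and 0 FPKM in DSS 1, 2 and 3, against 0.0385, 0 and 0 FPKM in the control samples. Defa17 was above 0 in DSS 1 alone, and Gata4 overlapped between the groups. Of all these markers, Dsg3, Krt4 and Myh2 were at 0 in every DSS sample only, and Trp63 and Defa17 in every control sample only, with at most 1.23 FPKM elsewhere. The labels used here do not give the stretch of colon sampled. Its part, and that of the cell makeup given above, in the Hox values was not tested.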

How the data were processed

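Sequencing of RNA gave values for 6 samples of mouse colon, 3 DSS and 3 control, grouped and numbered by the sample titles. The labels' protocols name TRIZOL for extraction, a poly(A) module and a second-strand module without directionality. Strand was therefore taken as not recorded, and overlapping genes as sharing reads. The authors deposited FPKM per gene, as the headers of their files say. The submitters' processing notes name mm10 and TopHat2 2.1.1. The program that computed FPKM is not given in the sources used here, nor is its annotation. Acetylation profiles were not analysed here.

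From the deposited FPKM, 12348 of 24421 genes were tested, those with 3 or more samples at 1 FPKM or above, and 27 rows with date-like names stayed in under those names. The fit on group used limma 3.58.1 in R 4.3.3 on log2(FPKM + 1), with trend and robust moderation, two-sided, and Benjamini-Hochberg adjustment over all tested genes at 0.05. The planned count test was not used because the files hold FPKM. Depth is unknown, since at most 1.55% of low genes fell in a bin of 0.02 log2 units, and no interval is given. No pair of samples was identical. The Hox genes, companion lists and markers were chosen with earlier results of these data known, and no list was tested as a set. Shares of summed FPKM have no test. An exact permutation test of 3 against 3 samples cannot give a p below 0.1, two-sided, and none was run. Of each companion list the called members are named, or else the 2 with the smallest p, and of marker lists the called members and some at or near 0. Genes outside this rule are said to be singled out. Values of 1 Hox gene, which is in all counts and sums, are not reported here.

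Coordinates and exon overlaps were read from the GENCODE vM21 annotation of GRCm38, which mm10 also names. Start-site windows and microRNAs are RefSeq's on GRCm38.p6. Shared sequence was sought with BLAST+ 2.17.0 at 95% identity over at least 200 bases. Plots were made in Python 3.11.15 with matplotlib 3.10.9. Alternatives covered scaling, pseudocount, filter, moderation, the replicate number as a block and each sample left out.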

Additional observations from a re-analysis of the deposited data

How the results depend on the processing

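Over all tested genes 783 were called higher and 316 lower. Upper-quartile scaling gave 544 and 467, and median-of-ratios scaling 529 and 513, as the median log2 fold change of all genes moved to 0.02 and -0.00, against 0.13 unscaled. Fits without 1 sample gave 209 to 1165 higher and 79 to 606 lower. With no filter on low values 537 were higher and 251 lower among 19058 tested. Among Hox genes such fits without 1 sample gave 0 to 5 higher and 0 to 2 lower, and every other setting gave 0 higher and 1 lower, Hoxd11. At an unadjusted p under 0.05, a filter at 0.1 FPKM gave 10 Hox genes higher and 4 lower, and no filter 8 and 4.

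Without 1 sample the sign of 5 log2 fold changes turned, with ranges of -0.59 to 0.51 for Hoxa10, -0.00091 to 0.75 for Hoxa11, -0.086 to 0.58 for Hoxa5, -0.27 to 0.95 for Hoxa9 and -0.028 to 0.28 for Hoxb2. Hoxb2 also turned under median-of-ratios scaling (-0.0062). The other 13 tested Hox genes kept their sign. The posterior share differed by -50.4 to -19.3 points without 1 sample. Companion genes called were 2 higher and 2 lower, and 0 to 6 higher and 0 to 4 lower without 1 sample. Higher calls were 1 under median-of-ratios scaling and 1 with no filter, and lower calls 1 with a pseudocount of 0.1 and 1 with no filter. The causes of these shifts were not tested beyond the samples and genes each setting leaves out or adds.

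Samples with the same replicate number deviated together only weakly (r = 0.08, 0.13 and 0.00 across genes for numbers 1, 2 and 3), so the numbers were not taken as pairing them. DSS 1 and DSS 2 correlated best with their own number and DSS 3 with control 1. With the replicate number as a block 640 genes were higher and 255 lower, Hox genes were 0 higher and 1 lower, and companion genes were 4 higher and 1 lower.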
